A study of Homo sapiens with 18 samples.

Results

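Extracellular vesicles (EVs) released by ATG12-/- HEK293T cells were compared with the ATG12-/- cells that released them. HEK293T is a human embryonic kidney line that carries the SV40 large T antigen. The comparison uses 3 EV libraries and 3 cell libraries of ATG12-/-, which are 6 of the 18 libraries of the series. The other libraries are 3 EV and 3 cell libraries of ATG7-/- and 3 EV and 3 cell libraries of wild type, and they serve here to estimate the spread and to ask where the EV-to-cell difference depends on genotype. Each knockout line is 1 clone, D9 for ATG12-/- and F2 for ATG7-/-, so the genotype and the clone cannot be told apart. All cultures, wild type included, were kept without serum for 24 h, and total RNA of EVs and cells was made into libraries that read the longer RNAs as single reads of 50 bases. The libraries of a group are called biological replicates in the labels, which do not say whether they came from separate cultures on separate days, so the p-values measure the spread between these libraries.

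ATG12 is a small ubiquitin-like protein that is joined to ATG5 by the enzymes ATG7 and ATG10. The ATG12-ATG5 conjugate, together with ATG16L1, attaches LC3 and GABARAP proteins to membrane lipid, the step by which autophagosomes form and by which some cargo is captured into vesicles for secretion. EVs carry a part of the RNA of the cell that releases them. Short cytosolic RNAs such as Y RNA and the RNA of the signal recognition particle are common in them, and RNAs held in the nucleus are usually scarcer in them than in cells.

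Values are in TPM, each transcript's share of its library after correction for transcript length, and were summed over the transcripts of a gene. Within such shares, less RNA of one kind and more of the others cannot be told apart, and neither the RNA per vesicle nor the number of vesicles was measured. Read depth is unknown because the values are not counts. The EV libraries held 13255 to 13501 genes at 1 TPM or more, and the cell libraries 19011 to 19729. Replicates were less alike among the EV libraries (correlation of log2 values over genes 0.689 to 0.692) than among the cell libraries (0.799 to 0.837), and EV and cell libraries correlated at 0.607 to 0.629. Of 17 genes of blood and liver that mark serum, 12 were at 0 in all 6 libraries, and none of the 3 that could be tested passed with all libraries, although 1 was lower without EV replicate 3. The 13 HEK293T marker genes were all tested, and their summed level was 206 ± 18.1 TPM in the EVs and 75.6 ± 11 TPM in the cells (SD, n = 3 each); VIM, coding for the intermediate filament protein vimentin, was the member that passed.

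The kit keeps the strand of the RNA, and the strand setting used to assign the reads is not given in the sources used here. In these libraries 135 noncoding features at 100 TPM or more lie with at least 90% of their length opposite exons of a coding gene. The feature had a higher TPM than the coding gene in 124 of these pairs in the EVs and in 134 in the cells, with median ratios of 13.1 in the EVs and 26.0 in the cells. If the setting was the opposite one, a gene's value reflects the other strand or stray reads. This limit holds for all levels given below under the name of a gene, those of mRNAs included. Which setting was used was not tested. The EV-to-cell difference had the same sign for feature and partner in 80 of 131 pairs with a tested partner, and in all 12 pairs in which both passed the test.

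Of 24647 genes tested with limma on log2(TPM + 1), 2752 (11.2%) passed an adjusted p of 0.05. Of these, 559 were higher in ATG12-/- EVs than in ATG12-/- cells (2.27% of the genes tested) and 2193 were lower (8.9%). The median log2 difference over all genes tested was -0.54, and levels are read against it. With quantile normalization, which forces one distribution on all libraries, the median was 0.15 and 2314 genes passed, 1414 higher and 900 lower, so the split between higher and lower calls depends on how EVs and cells are scaled to each other. Without any scaling it stayed near the main one, with 660 higher and 1913 lower. Of the genes lower in EVs, 1012 were listed at 0 in all 3 EV libraries. Protein-coding genes made up 444 of the higher and 791 of the lower calls. The EV and cell values did not overlap for 7.88% of the genes tested with the EVs above the cells, and for 22.8% with the EVs below, 30.7% in all. Leaving out 1 cell library lowered the number of calls to 1292 without replicate 1, 1478 without replicate 2 and 1734 without replicate 3, of which 298, 327 and 367 were higher and 994, 1151 and 1367 lower.

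Among the mRNAs that stood highest in the EVs relative to the cells were members of a group known to be carried to the tips of cell protrusions. These mRNAs are transported along microtubules with the adenomatous polyposis coli protein, and in RAB13 and NET1 a purine-rich stretch of the 3′ UTR is known to act in that transport. All 14 listed members were tested. Of these 7 (50%) were higher in the EVs and none was lower, against 2.27% and 8.9% over all genes. The members' median log2 difference was 1.23, against -0.54 over all genes. Together they reached 1650 ± 97.2 TPM in the EVs and 148 ± 10.4 TPM in the cells (SD, n = 3 each). Between 6 and 7 of them passed whichever single library was left out, and the median was also above 0 without scaling (1.37) and with quantile normalization (1.63). The longest uninterrupted purine run (A and G only) in the 3′ UTR was 45 nt in RAB13, a length reached by 0.456% of 18845 coding genes, 25 nt in NET1 (5.26% of genes), 18 nt in TRAK2 and 16 nt in RASSF3. A run of 20 nt or more was present in 4 of the 14 members and in 12.1% of all genes, and the members' 3′ UTRs were longer (median 2246.5 nt, against 1062 nt over all genes). The runs of the members with the largest differences are printed here for GRCh38 from GENCODE 29, 30 bases each and read 5′ to 3′ along the mRNA. Capitals mark the purine run; for RAB13 the 30 bases lie wholly inside it.
RAB13 (chr1:153981919-153981948, minus strand): AGAAAGGAAAAAAAGGAAGAGAGAGGAAGG
NET1 (chr10:5457957-5457986, plus strand): ttAAAAGAAAAAGAGAGGAAAAGAGAGtag
TRAK2 (chr2:201380304-201380333, minus strand): gtgttcAGAGGGAGAAAAGAAAGGtttaat
RASSF3 (chr12:64696261-64696290, plus strand): ggcccccAAGAAAGGGAGGAAAGtccacac

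RAB13 (chr1:153981617-153986358, minus strand), coding for a small GTPase of membrane traffic and cell junctions, had 621, 681 and 646 TPM in the 3 EV libraries, against 3.59, 4.29 and 6.63 TPM in the 3 cell libraries. Its mean was 134-fold higher in the EVs, with a log2 difference of 6.69 ± 0.27 (SE, limma, adjusted p = 1.2e-09). All 3 EV libraries lay far above all 3 cell libraries. NET1 (chr10:5412551-5458463), which codes for an activator of RhoA, had 454, 568 and 443 TPM in EVs and 10.7, 13.1 and 12.2 TPM in cells, a log2 difference of 5.08 ± 0.34 (adjusted p = 2.8e-07). TRAK2 (chr2:201377207-201451579), an adaptor that links mitochondria to motor proteins, had 44.6, 48.0 and 41.5 TPM in EVs and 0.399, 0.427 and 1.06 TPM in cells. The groups were separate by a wide gap for both genes. The log2 difference of TRAK2 was 4.68 ± 0.33 (adjusted p = 5e-07). STRADB, a pseudokinase that partners LKB1, is transcribed from the opposite strand at the same locus; 18.7% of its leading transcript lies opposite TRAK2 exons, so part of its reads could belong to TRAK2. STRADB reached 1079, 1074 and 802 TPM in EVs, against 16.2, 15.0 and 21.1 TPM in cells, and its log2 difference was 5.60 ± 0.27.

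KIF1C, a kinesin motor that carries protrusion mRNAs, had 214, 224 and 183 TPM in EVs, against 18.5, 11.4 and 10.3 TPM in cells (log2 difference 3.75 ± 0.37, adjusted p = 1.3e-05). RASSF3, a Ras-association domain protein, had 45.5, 23.6 and 29 TPM in EVs and 0.578, 0.659 and 0.830 TPM in cells. PKP4, a plakophilin of cell junctions, had 55.4, 80.8 and 41.4 TPM in EVs and 5.83, 9.44 and 8.52 TPM in cells. EV and cell values did not overlap for any of these genes, and all passed under every alternative tried. DDR2, a collagen receptor, was separate by less, with 12.9, 17.3 and 20.7 TPM in EVs and 6.92, 6.39 and 6.07 TPM in cells. Its log2 difference of 1.11 ± 0.29 (adjusted p = 0.0236) missed the threshold without EV replicate 3 (0.062) and without cell replicate 1, 2 or 3 (0.0589, 0.0737 and 0.0742). The 7 members that did not pass had log2 differences between -0.81 for DYNLL1 and 1.36 for CYB5R3. KANK2 was among them (0.01), although its 3′ UTR holds a purine run of 24 nt.

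**Figure D1:**
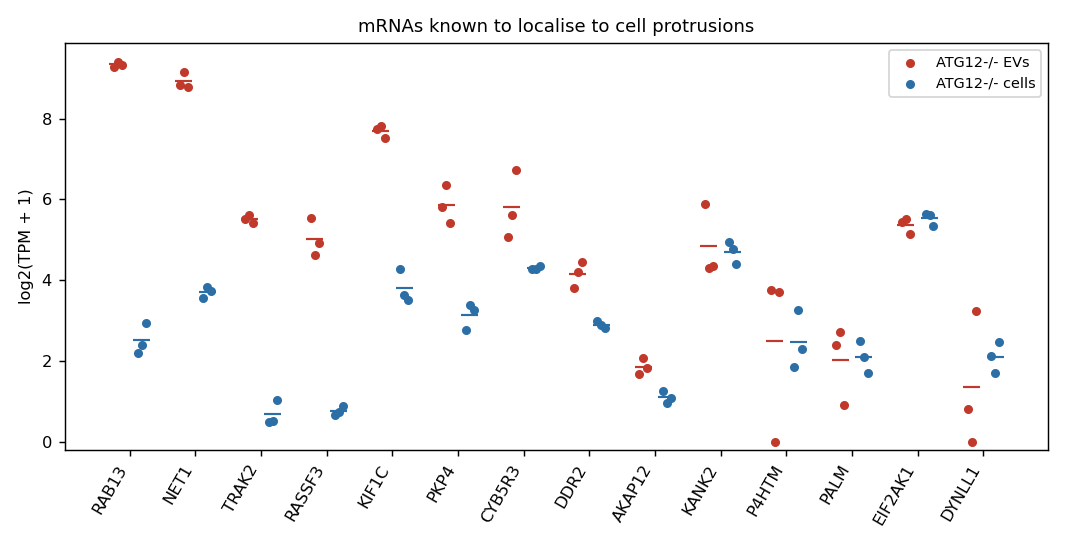
Levels of the 14 protrusion-localised mRNAs, as log2(TPM + 1), with a point for each of the 3 libraries of ATG12-/- EVs (red, left) and of ATG12-/- cells (blue, right) and a line at the mean of each group. RAB13, NET1, TRAK2, RASSF3 and KIF1C stand clearly apart between the groups, whereas the values of DYNLL1, EIF2AK1, PALM and P4HTM overlap.

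Of the gene lists, those of ribosomal protein mRNAs held the most members that rose. Many of them begin with a 5′ terminal oligopyrimidine (TOP) start, a cytidine followed by a run of pyrimidines, through which growth signals control their translation. Of 47 tested mRNAs of the large subunit 26 (55.3%) were higher in EVs. Of 33 tested mRNAs of the small subunit 19 (57.6%) were higher. None of either was lower, and over all genes 2.27% were higher and 8.9% lower. The median log2 differences of the large-subunit and small-subunit mRNAs were 1.82 and 1.80, against -0.54 over all genes. Leaving out 1 library gave 20 to 26 higher members of the large subunit and 14 to 17 of the small one. Coding genes with short transcripts passed more often: 8.04% of 622 genes with a leading transcript of at most 500 nt were higher in EVs, against 1.29% of 856 genes above 5000 nt. The shares lower in EVs were 6.27% and 6.89% in those bins. Of the short genes 66.2% reached 20 TPM in the higher group, against 3.74% of the long ones, and the part of transcript length and level in these counts was not tested.

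RPS2, a protein of the small subunit, had 2524, 2549.6 and 2744 TPM in EVs, against 218, 235 and 339.8 TPM in cells (log2 difference 3.18 ± 0.32, adjusted p = 1.67e-05). RPL39, one of the smallest ribosomal proteins, had 933, 1038 and 925 TPM in EVs and 100.4, 98.4 and 183 TPM in cells (2.83 ± 0.24). The EV libraries lay above the cell libraries for both. RACK1, a scaffold protein bound to the small subunit, had 1414, 1480.5 and 1579 TPM in EVs and 278, 278 and 396 TPM in cells (2.11 ± 0.19). Ribosomal protein genes have many processed pseudogenes in the genome, so reads may be divided among copies; RPL39P3, such a copy of RPL39, had 14739, 14962 and 9418 TPM in EVs and 4334, 4296 and 5481 TPM in cells (1.31 ± 0.25).

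Promoter starts were taken from RefSeq for 64 of the 80 ribosomal protein genes tested. A TOP start, defined as a C followed by at least 4 pyrimidines (C or T) at the RefSeq start, was present in 43 of them (67.2%) and in 4.04% of 27305 promoters of all genes. With a TOP start, 24 of 43 were higher in EVs with a median log2 difference of 1.83, and without one 11 of 21 were higher with a median of 1.68. Starts of mRNAs of both subunits and of the elongation factor EEF2, another mRNA of the TOP class, are shown as examples of the motif in GRCh38.p14. The first 10 bases of each lie before the start, and capitals mark the pyrimidine run.
RPLP1 (chr15:69452808-69452837, plus strand): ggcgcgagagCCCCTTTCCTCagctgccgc
RPL13A (chr19:49487598-49487627, plus strand): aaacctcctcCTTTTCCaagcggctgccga
RPS3A (chr4:151099618-151099647, plus strand): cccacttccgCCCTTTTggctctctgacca
RPS19 (chr19:41860245-41860274, plus strand): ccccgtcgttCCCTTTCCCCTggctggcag
EEF2 (chr19:3985444-3985473, minus strand): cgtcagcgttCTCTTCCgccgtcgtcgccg

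Of 38 translation factor mRNAs tested, 12 (31.6%) were higher in EVs and none was lower, against 2.27% and 8.9% over all genes. The others did not pass. The list's median log2 difference was 0.76, and 11 or 12 members were higher with any 1 library left out. EEF2, which moves the ribosome along the mRNA, had 18053, 21368 and 17669.8 TPM in EVs, against 5243, 6538 and 5955 TPM in cells (log2 difference 1.54 ± 0.16, adjusted p = 2.5e-05). EEF1G, a subunit of the factor that reloads the elongation factor EEF1A, had 967, 1090.5 and 1134 TPM in EVs and 257, 291 and 351 TPM in cells (1.69 ± 0.21). TPT1, a growth-related protein whose mRNA also has a TOP start, had 142, 164 and 158 TPM in EVs and 21.3, 25.6 and 31.1 TPM in cells (2.40 ± 0.36). No EV value overlapped a cell value for these 3 genes. The leading transcript of AL138963.3 lies wholly opposite TPT1 exons. AL138963.3 averaged 5547 ± 354 TPM in EVs and 1491 ± 62.5 TPM in cells (SD, n = 3 each), with a log2 difference of 1.75 ± 0.13. Almost all of the EEF2 signal (94.9%) sat on a short transcript of 218 nt, for which TPM is sensitive to the effective length used.

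**Figure D2:**
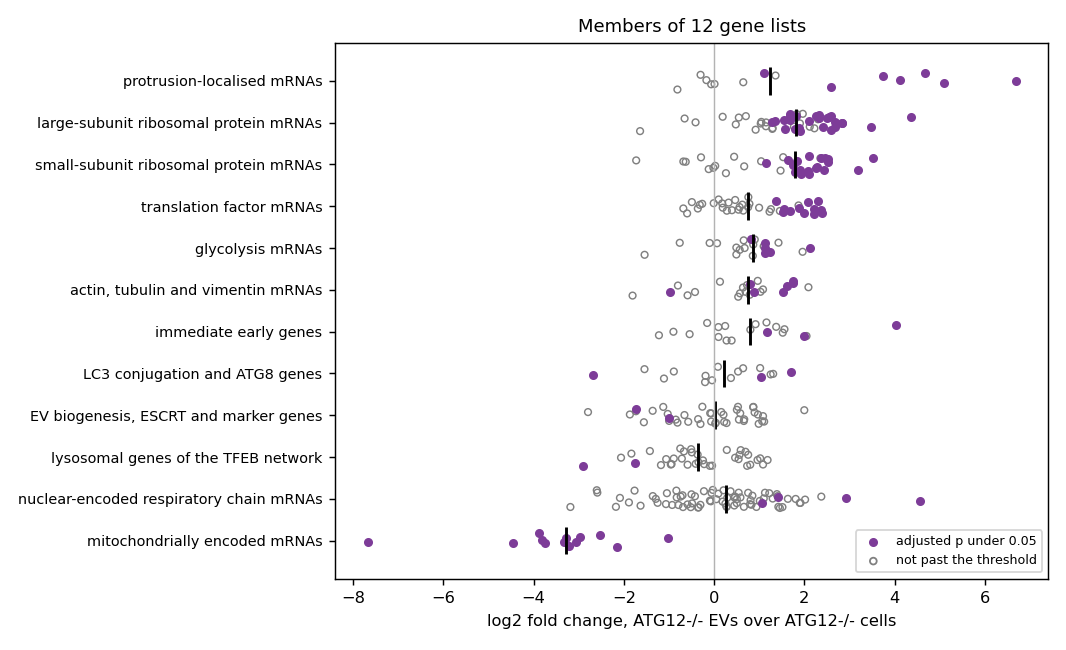
Log2 difference of ATG12-/- EVs over ATG12-/- cells (x axis) for the tested members of selected gene lists (y axis), filled where the adjusted p was under 0.05, with a black bar at each list's median. Ribosomal protein and protrusion-localised mRNAs lie mostly to the right of 0, mitochondrially encoded mRNAs all lie to the left, and the lists for EV biogenesis and for LC3 conjugation spread around 0.

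Some mRNAs of glycolysis and of the cytoskeleton were higher in EVs. Of 21 glycolysis mRNAs 6 (28.6%) were higher in EVs and none was lower, against 2.27% and 8.9% over all genes. The list's median log2 difference was 0.86, but the number higher fell to 2 without cell replicate 1. GAPDH, a central enzyme of glycolysis, had 432, 503 and 556 TPM in EVs, against 84.0, 93.1 and 136 TPM in cells (2.12 ± 0.22), and TPI1 had 665, 662 and 578 TPM in EVs and 226, 306 and 263 TPM in cells (1.13 ± 0.22). Both kept their calls under every alternative. Of 22 mRNAs of actin, tubulin, keratin and vimentin 6 (27.3%) were higher and 1 (4.55%) was lower. Without cell replicate 1, 3 were higher, against 10 without scaling and 11 with quantile normalization. The lower member, TUBB6 (-0.98), did not pass without scaling, with quantile normalization, without EV replicate 2 or 3 or without any 1 cell replicate. TUBA1B, an alpha-tubulin, had 188, 185 and 179 TPM in EVs and 49.9, 56.6 and 54.4 TPM in cells (1.62 ± 0.28). VIM had 74.6, 61.5 and 103 TPM in EVs and 23.4, 12.1 and 29.9 TPM in cells (1.74 ± 0.35). The EV and cell libraries did not overlap for TUBA1B or VIM. The leading transcript of AC011603.2 lies wholly opposite TUBA1B exons. AC011603.2 averaged 9539 ± 137 TPM in EVs and 5627 ± 306 TPM in cells (SD, n = 3 each), with a smaller log2 difference of 0.62 ± 0.10.

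Immediate early genes are induced within minutes by stimuli and stress, and their mRNAs are short-lived. Many of them, but not all, code for transcription factors. Of 19 immediate early genes tested, 3 (15.8%) were higher in EVs and none was lower, against 2.27% and 8.9% over all genes. The number higher was 2 without EV replicate 3 or without any 1 cell replicate, 4 without EV replicate 1 and 5 without EV replicate 2 or with quantile normalization. FOS had 19.98, 32.0 and 26.8 TPM in EVs and 2.14, 0 and 0 TPM in cells (log2 difference 4.02 ± 0.53, adjusted p = 0.000229). ATF3 had 25.7, 13.9 and 16.2 TPM in EVs and 3.83, 3.11 and 3.14 TPM in cells (1.99 ± 0.41). EV values lay above all cell values for both. JUN had 17.1, 13.1 and 23.9 TPM in EVs and 6.74, 6.09 and 6.71 TPM in cells (adjusted p = 0.0268), and missed the threshold without EV replicate 3 (0.0753) or without cell replicate 1, 2 or 3 (0.0707, 0.0884 and 0.0696). ATF4, which activates stress genes, had 689.5, 712 and 722 TPM in EVs and 223, 286 and 217 TPM in cells (1.41 ± 0.19). Of the 27 genes of the ATF4 response list ATF4 and ATF3 were the 2 (7.41%) that passed, both higher in EVs.

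Among noncoding RNAs, 2 of 3 genes for the RNA of the signal recognition particle and 1 of 3 Y RNAs tested were higher in EVs. Over all genes 2.27% were higher. The particle directs ribosomes that make secreted proteins to the endoplasmic reticulum, and 7SL is its RNA. RN7SL1 (chr14:49586580-49586878, plus strand) had 42449, 41000.2 and 36156 TPM in EVs, against 11289.7, 18667 and 12000.4 TPM in cells (log2 difference 1.40 ± 0.22, adjusted p = 0.00108). RN7SL2 (chr14:49862550-49862849, minus strand) had 29553, 33391 and 27949 TPM in EVs and 8718, 11549 and 14054 TPM in cells (1.29 ± 0.19). The EV libraries were above the cell libraries for both genes. RN7SL3, the other member, did not pass (2.36 ± 1.63, adjusted p = 0.371). The genes differ in 5 of 300 aligned positions, and reads of 50 bases are divided between them and their copies, so their sum is the firmer value. Over 662 genes and pseudogene copies of 7SL the sums were 81701.6, 84447.7 and 71799.1 TPM in EVs and 33259.7, 43536 and 38987.6 TPM in cells.

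Y RNAs are short hairpin RNAs bound by the Ro60 and La proteins, and 5S rRNA is the small RNA of the large ribosomal subunit, made by RNA polymerase III. RNY1 had 12278, 9309 and 12001 TPM in EVs, against 2392, 2100.0 and 892 TPM in cells (2.61 ± 0.46, adjusted p = 0.0026). The other Y RNAs tested did not pass, with log2 differences of 0.20 ± 1.94 for RNY3 (adjusted p = 0.973) and 1.39 ± 2.93 for RNY4 (adjusted p = 0.797). RNA5S1 had 9595, 4383 and 882 TPM in EVs and was listed at 0 in all 3 cell libraries. The EV libraries stood above the cells for RNY1 and RNA5S1, but the RNA5S1 level differed by more than 10-fold among EV libraries, and it is 1 of many near-identical copies. Summed over 498 copies of 5S, the values were 9957, 5013 and 3374 TPM in EVs and 2813, 2402 and 2392 TPM in cells. RNY1 is printed as annotated in GENCODE 29, because TPM of an RNA as short as this (113 nt) depends strongly on the effective length used.
RNY1 (chr7:148987136-148987248, minus strand): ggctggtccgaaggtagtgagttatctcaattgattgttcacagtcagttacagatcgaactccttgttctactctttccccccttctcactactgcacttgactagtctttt

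Among the other RNAs made by RNA polymerase III was RN7SK. It holds the elongation factor P-TEFb inactive in the nucleus and had 9968, 12037 and 10433 TPM in EVs, against 6006, 6202 and 9145 TPM in cells (0.48 ± 0.20, adjusted p = 0.124). RPPH1, the RNA of ribonuclease P, had 4026, 4868 and 4785 TPM in EVs and 1663, 1818 and 3259 TPM in cells (0.94 ± 0.28, adjusted p = 0.0436). The EV values of RPPH1 lay above the cell values, but its call was lost without EV replicate 1, 2 or 3 (0.0629, 0.102 and 0.0868) and without cell replicate 1 or 2 (0.159 and 0.149).

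Of the RNAs encoded by the mitochondrial genome, all 13 mRNAs and 13 of 21 tRNAs (61.9%) were lower in EVs, and neither rRNA passed the test. Over all genes 8.9% were lower. The mitochondrially encoded RNAs took 2.20 ± 0.11% of the library in EVs and 13.4 ± 2.02% in cells (SD, n = 3 each). This difference had an exact permutation p of 0.1, two-sided, the smallest that 3 against 3 can give. Most of the share was tRNA, at 1.70 ± 0.11% in EVs and 11.3 ± 1.77% in cells, and TPM of such short RNAs is inflated relative to long RNAs. The mRNAs had a median log2 difference of -3.28, and all 13 stayed lower with any 1 library left out. MT-ND5, a subunit of respiratory complex I, had 104, 73.6 and 69.9 TPM in EVs, against 1211, 972 and 831 TPM in cells (-3.74 ± 0.23, adjusted p = 9.9e-08). MT-ND4, of the same complex, had 129, 81.7 and 125 TPM in EVs and 1119, 894 and 808 TPM in cells (-3.22 ± 0.23). MT-CO1, a catalytic subunit of complex IV, was the member with the smallest difference, with 329, 376 and 283 TPM in EVs and 595, 560.5 and 671 TPM in cells (-1.03 ± 0.19, adjusted p = 0.00405). For each of these mRNAs every EV value was below every cell value. MT-ND6, the mRNA of the other mitochondrial strand, had 39.8, 61.4 and 57.9 TPM in EVs and 915, 643 and 523 TPM in cells (-3.81 ± 0.34).

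MT-RNR2, the 16S rRNA, had 3293, 3372 and 3338 TPM in EVs, against 2721, 3041 and 3855 TPM in cells (-0.07 ± 0.14, adjusted p = 0.787). The EV values lay within the range of the cell values. MT-RNR1, the 12S rRNA, had 16.6, 4.97 and 6.56 TPM in EVs and 55.8, 1.52 and 4.58 TPM in cells and did not pass. Of 76 nuclear-encoded mRNAs of the respiratory chain 4 (5.26%) were higher in EVs and none was lower (median 0.26), and of 75 mRNAs of the mitochondrial ribosome 3 (4%) were higher and 3 lower (median 0.13), against 2.27% higher and 8.9% lower over all genes. With quantile normalization 8 mRNAs of the respiratory chain were higher, and 7 of the mitochondrial ribosome were higher and 1 was lower. Without cell replicate 1 the number of higher members was 2 and 0 in those lists, and without cell replicate 3 no mRNA of the mitochondrial ribosome was lower. ATP5PO, a subunit of ATP synthase, was the member with the largest rise, with 50.7, 54.5 and 467 TPM in EVs and 3.89, 9.70 and 0.428 TPM in cells (4.56 ± 0.90); EV replicate 3 was far above the others, and most of the signal sat on a transcript of 157 nt.

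The mitochondrial tRNAs had a median log2 difference of -5.80, none was higher, and 11 or 12 were lower with any 1 library left out. Of those that did not pass, MT-TQ stood at -0.07 ± 0.72 (adjusted p = 0.978), MT-TP at -1.08 ± 0.70 and MT-TL2 at -1.51 ± 0.69. MT-TA was listed at 0 in all 3 EV libraries and had 2344, 2487 and 2369 TPM in cells. MT-TM was also listed at 0 in all 3 EV libraries and had 1055, 1249 and 1399 TPM in cells. MT-TW had 0, 152 and 0 TPM in EVs and 7955, 8327 and 6717 TPM in cells. EV values lay below cell values for each, and the tRNAs MT-TN, MT-TE and MT-TI, which ranked next, also passed under every alternative that left them in. Some calls rested on single libraries (adjusted p up to 0.0762 for MT-TG, 0.109 for MT-TY and 0.108 for MT-TD). All 3 were lost without cell replicate 1 or 2, MT-TG also without EV replicate 2 or 3, MT-TY without EV replicate 1 or 2 or cell replicate 3, and MT-TD without EV replicate 1 or 3 or cell replicate 3. MT-TR, at 65 nt, stayed the most abundant, with 4821, 8920.1 and 9846 TPM in EVs and 66452, 49143 and 40836 TPM in cells (-2.91 ± 0.27, adjusted p = 8.3e-06). TPM of RNAs this close to the read length is inflated relative to long RNAs, so tRNA levels are read here between samples and not against mRNAs. The tRNAs with the largest fall are shown because their short length bears on that limit.
MT-TA (chrM:5587-5655, minus strand): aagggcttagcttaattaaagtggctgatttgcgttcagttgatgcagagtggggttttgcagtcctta
MT-TW (chrM:5512-5579, plus strand): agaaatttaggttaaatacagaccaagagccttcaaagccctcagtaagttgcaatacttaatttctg
MT-TM (chrM:4402-4469, plus strand): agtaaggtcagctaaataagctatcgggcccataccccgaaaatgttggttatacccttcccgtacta

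**Figure D3:**
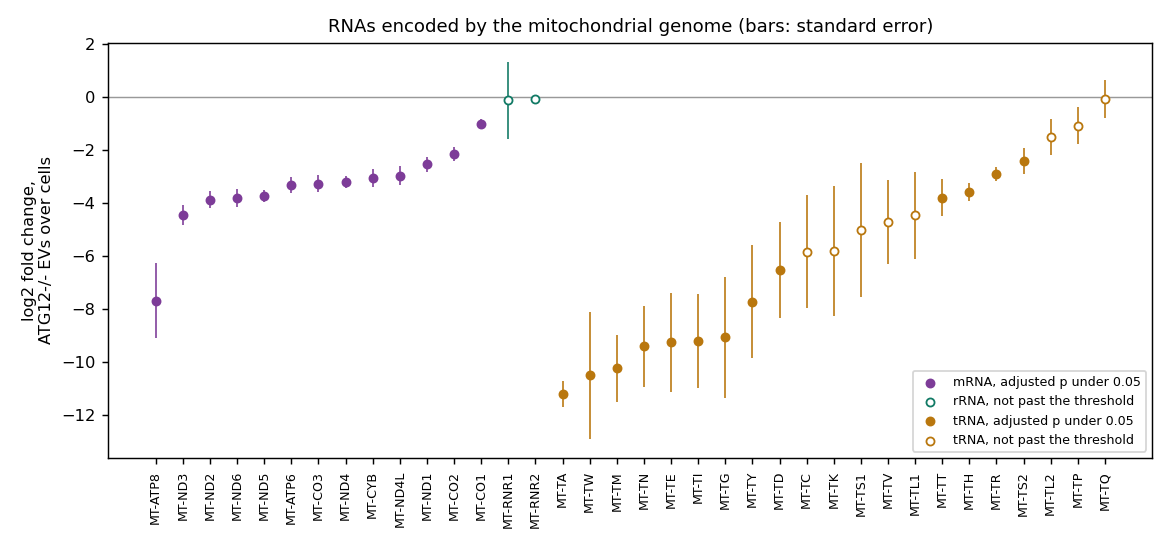
Log2 difference of ATG12-/- EVs over ATG12-/- cells with its standard error for the mitochondrial mRNAs, rRNAs and tRNAs, filled where the adjusted p was under 0.05. The mRNAs lie between -7.68 and -1.03, the rRNAs at -0.07 and -0.13, and the tRNAs reach -11.2 for MT-TA, whose EV libraries were all at 0.

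Features annotated as miRNA loci took 2.83 ± 0.27% of the EV libraries, against 11.7 ± 2.31% of the cell libraries (SD, n = 3 each; exact permutation p = 0.1, two-sided). Most of this share in the cells lay in MIR3648-1, MIR663B, MIR6723 and MIR3687-1. Of 80 loci tested 16 (20%) were lower in EVs and 1 was higher, against 8.9% lower and 2.27% higher over all genes. Libraries of long RNA do not measure mature miRNAs, so these values stand for longer RNA across the loci. MIR3648-1 (chr21:8208473-8208652) and MIR3687-1 (chr21:8208844-8208904) are annotated inside the precursor of ribosomal RNA, which is confined to the nucleolus until it is cut. MIR3648-1 had 1649, 2265 and 2575 TPM in EVs, against 29145, 33998 and 45128 TPM in cells (-4.20 ± 0.27, adjusted p = 1.4e-07). MIR3687-1 had 294, 156 and 1238 TPM in EVs and 9705, 8368 and 23079 TPM in cells (-5.14 ± 0.78). MIR663B had 3371, 1075 and 2149 TPM in EVs and 20765, 21471 and 31391 TPM in cells (-3.74 ± 0.34). The EV values of all 3 loci lay below the cell values by a wide margin. The annotated locus of MIR3687-1, from GENCODE 29, and the mature miRNA of MIR663B, from RefSeq (GRCh38.p14) with its seed in capitals, are shown to make plain how much longer a measured locus is than a miRNA.
MIR3687-1: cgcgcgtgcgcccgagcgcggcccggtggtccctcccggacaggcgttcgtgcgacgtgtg
hsa-miR-663b: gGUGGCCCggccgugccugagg

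Not every feature near the rDNA copies of chromosome 21 fell. FP671120.3 (chr21:8210384-8211306), on the other strand, had 47492, 38989 and 24472 TPM in EVs, against 19948, 549 and 1336 TPM in cells (3.72 ± 1.11, adjusted p = 0.0433). Cell replicate 1 stood close to the EV libraries, and the call was lost without EV replicate 1, 2 or 3 (0.102, 0.0925 and 0.066) and without cell replicate 2 or 3 (0.177 and 0.129). MIR6723 (chr1:632325-632413) had 3105, 4815 and 3068 TPM in EVs and 19420.0, 14966 and 18389 TPM in cells (-2.43 ± 0.26). MIR1279 and MIR6721 were listed at 0 in all EV libraries, with 427 to 499.9 TPM and 223 to 318 TPM in cells, but both lost their calls with any single library left out (adjusted p from 0.0551 to 0.0735 for MIR1279 and from 0.0747 to 0.093 for MIR6721).

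RNAs that guide modification in the nucleolus and the Cajal body fell in part. H/ACA RNAs guide the change of uridine to pseudouridine, and scaRNAs do so in the Cajal body. Of 21 H/ACA snoRNAs and scaRNAs tested 5 (23.8%) were lower in EVs, against 8.9% over all genes, and none was higher. The number lower was 3 without EV replicate 2 or 3 or without cell replicate 2 or 3. Of 170 listed members 135 were at 0 in all 6 libraries. A member at 0 in the ATG12-/- EVs could pass the level filter only through other libraries. The median log2 difference of -4.04 therefore also depends on which members could be tested. SNORA63C was listed at 0 in all 3 EV libraries and had 58.6, 250.5 and 101.03 TPM in cells (adjusted p = 0.00288). SCARNA12 was listed at 0 in all 3 EV libraries and had 52.6, 68.8 and 35.9 TPM in cells (adjusted p = 0.00617). None of the 9 C/D box snoRNAs tested, which guide ribose methylation, and none of the 6 spliceosomal snRNAs passed in either direction with limma, although 1 C/D box snoRNA was higher without EV replicate 2. At an unadjusted p under 0.05 the whole comparison had 6804 genes.

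Long noncoding RNAs of a list drawn up for retention in the nucleus showed no shared direction. The list also holds NORAD and OIP5-AS1, which are not confined to the nucleus. Of 12 tested 1 (8.33%) was higher and 3 (25%) were lower, against 2.27% and 8.9% over all genes. The median was 0.42, and with quantile normalization 2 were higher and 1 was lower. FTX, transcribed from the X-inactivation centre, had 316, 302 and 323 TPM in EVs, against 99.9, 105 and 90.2 TPM in cells (1.53 ± 0.18, adjusted p = 7.97e-05), with no overlap. MALAT1 had 232, 475 and 498 TPM in EVs and 63.7, 171 and 120.2 TPM in cells, did not overlap either, and missed the threshold (adjusted p = 0.0738). The lower calls, KCNQ1OT1, MEG3 and CCDC26, had adjusted p of 0.0461, 0.0308 and 0.0299. None of these 3 passed without EV replicate 2 or 3 or without cell replicate 1 or 2, and with quantile normalization KCNQ1OT1 had a log2 difference of 0.47, the opposite sign. IQCH-AS1, the antisense RNA with the largest fall among named genes, had 1.95, 1.17 and 1.76 TPM in EVs and 605, 667 and 306 TPM in cells (-7.66 ± 1.6, adjusted p = 0.0079).

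The targeted gene was checked in its own libraries. ATG12 (chr5:115828200-115841858, minus strand) had 0, 0.858 and 0 TPM in EVs, against 6.71, 9.18 and 5.18 TPM in cells (-2.67 ± 0.83, adjusted p = 0.0496), and lost its call with any single library left out (adjusted p from 0.0674 to 0.134). Its mRNA was thus still read in ATG12-/- cells; the position and kind of the edit are not given in the labels, and an mRNA level does not check a frameshift. ATG7, not the target in this clone, had 13.8, 20.8 and 14.1 TPM in EVs and 14.9, 13.1 and 17.1 TPM in cells (-0.05 ± 0.32, adjusted p = 0.956).

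Other genes of LC3 conjugation showed no shared direction. Of 16 tested, 2 (12.5%) were higher in EVs and 1 (6.25%), ATG12, was lower, against 2.27% and 8.9% over all genes. The list's median log2 difference was 0.23. ATG10, the E2-like enzyme that joins ATG12 to ATG5, had 2677, 2701 and 2821 TPM in EVs, against 658, 797 and 834 TPM in cells (1.70 ± 0.15, adjusted p = 3.5e-06). Of its leading transcript 41.4% lies opposite exons of RPS23, a ribosomal protein gene that also rose (53.1, 36.6 and 27.2 TPM in EVs and 4.79, 3.74 and 7.26 TPM in cells), so the ATG10 value cannot be told apart from reads of that locus. GABARAP, a relative of LC3 that binds cargo receptors, had 134, 92.0 and 131 TPM in EVs and 36.7, 61.3 and 60.5 TPM in cells (1.03 ± 0.29, adjusted p = 0.0314). It missed the threshold without EV replicate 1 or 3 (0.0787 and 0.0709) and without cell replicate 1, 2 or 3 (0.137, 0.057 and 0.054).

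Of 27 genes for autophagy initiation and cargo receptors 2 (7.41%) were higher and none was lower (median 0.00). Over all genes 2.27% were higher and 8.9% lower. In the list, 4 were higher without scaling and 5 with quantile normalization. SQSTM1, the cargo receptor p62, had 140.4, 217 and 182 TPM in EVs and 47.7, 48.9 and 49.4 TPM in cells (1.70 ± 0.27, adjusted p = 0.0013). RB1CC1, coding for the initiation subunit FIP200, had 24.2, 36.8 and 51.5 TPM in EVs and 4.52, 10.1 and 4.83 TPM in cells (adjusted p = 0.0147), a call lost without cell replicate 1 (0.0605) or 3 (0.0526). Of 36 lysosomal genes none was higher and 2 (5.56%) were lower. The median of the lysosomal list, -0.36, turned to 0.06 with quantile normalization. The number lower was 3 without EV replicate 1, 1 without EV replicate 2 or cell replicate 1 or 3, and 0 without cell replicate 2.

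Of 41 genes of EV biogenesis, ESCRT and vesicle markers none was higher and 2 (4.88%) were lower (median 0.02), against 2.27% higher and 8.9% lower over all genes. With quantile normalization 5 were higher and none was lower (median 0.53), the opposite direction; without EV replicate 1, 2 were higher and 1 was lower. VPS4A, the ATPase that takes ESCRT-III apart, had 41.7, 37.1 and 36.2 TPM in EVs, against 83.1, 73.2 and 56.2 TPM in cells (adjusted p = 0.0284), and did not pass without EV replicate 2 or 3 (0.0616 and 0.0726) or cell replicate 1 or 2 (0.119 and 0.0807). RAB27A, a GTPase of vesicle release, had 0.991, 1.17 and 0.150 TPM in EVs and 5.29, 2.77 and 6.11 TPM in cells (adjusted p = 0.0349), and passed with cell replicate 2 left out but with no other library left out.

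Of 32 mRNAs for RNA-binding proteins linked to vesicle loading 2 (6.25%) were higher and 3 (9.4%) lower, against 2.27% and 8.9% over all genes. The share of lower members was thus near that of all genes. With quantile normalization 3 were higher and 1 lower. SSB, coding for the La protein that binds Y RNA and other RNA polymerase III transcripts, had 0, 1.25 and 0 TPM in EVs, against 14.6, 16.7 and 11.3 TPM in cells (-3.52 ± 0.57, adjusted p = 0.0013). SAFB, a scaffold attachment factor, had 0.341, 0.519 and 0 TPM in EVs and 5.30, 7.6 and 5.72 TPM in cells (-2.49 ± 0.49). For SSB and SAFB no EV value overlapped a cell value; SAFB did not pass with quantile normalization (0.0624). MVP, the major vault protein, had 74.0, 306 and 41.6 TPM in EVs and 14.9, 11.7 and 12.3 TPM in cells (2.69 ± 0.54), with EV replicate 2 above the others. YBX1, an RNA-binding protein that sorts RNA into exosomes, had 17.3, 23.6 and 33.4 TPM in EVs and 5.65, 4.59 and 5.11 TPM in cells (1.89 ± 0.50, adjusted p = 0.0254), a call that remained without EV replicate 1 and was lost with every other library left out (adjusted p from 0.0545 to 0.0789). SFPQ, a splicing factor of paraspeckles and the other lower member, had 12.5, 10.0 and 9.03 TPM in EVs and 22.4, 25.8 and 22.6 TPM in cells (adjusted p = 0.0188), and missed the threshold without EV replicate 3 (0.0529) or cell replicate 1 (0.0602) or 2 (0.0655).

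Outside these groups, several coding genes ranked among those with the largest rise. OAZ2, an antizyme that lowers polyamines, had 912, 415 and 349.9 TPM in EVs, against 58.2, 29 and 4.11 TPM in cells (4.47 ± 0.96, adjusted p = 0.00974). COMMD3 had 87.9, 33.6 and 153 TPM in EVs and 4.72, 1.78 and 0 TPM in cells (4.79 ± 1.16, adjusted p = 0.0176). The groups did not overlap for either gene, but COMMD3 missed the threshold without EV replicate 3 (0.0568) or cell replicate 3 (0.0679), and its signal, like that of OAZ2, sat on a transcript under 300 nt. MYL6B, a myosin light chain, had 141, 523 and 224 TPM in EVs and 50.2, 5.54 and 1.29 TPM in cells, and was lost without EV replicate 2 (0.059), cell replicate 2 (0.0599) or cell replicate 3 (0.0726). CDC42BPG, a kinase downstream of CDC42, had 36.7, 35.0 and 26.4 TPM in EVs and 0.114, 0.0486 and 0.196 TPM in cells and missed the threshold with any single library left out (adjusted p from 0.0609 to 0.0843).

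Calls in lists of other cell functions are read against the shares over all genes, 2.27% higher and 8.9% lower. Of 30 very long mRNAs 1 was higher and 4 (13.3%) were lower; KMT2C, a histone methyltransferase, had 199, 169 and 166 TPM in EVs and 44.7, 39.3 and 27.0 TPM in cells (2.12 ± 0.31). SYNE2, a giant protein of the nuclear envelope, had 3.90, 0.240 and 6.42 TPM in EVs and 27.4, 14.6 and 18.6 TPM in cells (-2.61 ± 0.53). The values of neither overlapped between EVs and cells. Of 36 proteasome mRNAs 1 was higher and 2 were lower, of 33 endoplasmic reticulum mRNAs 3 (9.09%) were higher, of 30 sterol and fatty acid synthesis mRNAs 2 (6.67%) were higher, of 32 cell cycle mRNAs 2 (6.25%) were higher, and of 52 replication-dependent histone genes 1 was higher and 1 was lower. Without cell replicate 1 no member of the proteasome or endoplasmic reticulum lists passed, and 1 very long mRNA was lower in place of 4; over single libraries left out, the counts in these lists ranged from 0 to 4. HIST1H2BC, a core histone gene, had 102, 139 and 62.7 TPM in EVs and 7.86, 12.6 and 18.6 TPM in cells (2.73 ± 0.41). CDT1, which licenses DNA replication, had 115, 51.7 and 61.3 TPM in EVs and 16.2, 11.03 and 12.8 TPM in cells (2.21 ± 0.38).

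The most abundant features with a difference included several that lie in part or wholly opposite coding exons, a situation described above for noncoding features. SH3D19, itself a coding gene with 52.1% of its leading transcript opposite RPS3A, had 44528, 40201 and 44114 TPM in EVs, against 10223, 10624 and 9705 TPM in cells (1.93 ± 0.10). RPS3A itself had 315, 267 and 268.8 TPM in EVs and 37.9, 46.5 and 57.4 TPM in cells (2.43 ± 0.29). AC006064.4, opposite GAPDH, had 11739.9, 10883 and 11722 TPM in EVs and 3920.1, 4305 and 4031 TPM in cells (1.34 ± 0.09). LHFPL3-AS2, whose leading transcript lies opposite no coding exons, had 11835, 11848 and 11618 TPM in EVs and 1946, 1932 and 1949 TPM in cells (2.46 ± 0.14). AC125257.2, opposite ACLY, went the other way, with 5545, 8393 and 7985 TPM in EVs and 32721, 30653 and 25128 TPM in cells (-2.17 ± 0.21), while ACLY had 29.03, 99.6 and 122.7 TPM in EVs and 45.3, 61.0 and 62.7 TPM in cells and did not pass (adjusted p = 0.813). At the VASH1 locus, chosen after its values were seen, AF111169.3 averaged 5281 ± 589 TPM in EVs and 260.2 ± 71.3 TPM in cells (SD, n = 3 each), and VASH1, which codes for a tubulin-trimming enzyme, averaged 31.3 ± 5.87 TPM in EVs and 2.74 ± 0.26 TPM in cells.

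By class, protein-coding genes took 38.7 ± 0.86% of the EV libraries and 25.1 ± 1.24% of the cell libraries (SD, n = 3 each). Processed pseudogenes took 7.19 ± 0.18% in EVs and 4.25 ± 0.14% in cells, and mitochondrial tRNAs 1.70 ± 0.11% in EVs and 11.3 ± 1.77% in cells. The class of miscellaneous RNA, which holds 7SL, 7SK and Y RNA, took 13.9 ± 0.56% in EVs and 12.1 ± 0.28% in cells, and snoRNAs took 0.43 ± 0.07% in EVs and 0.87 ± 0.10% in cells. None of these ranges overlapped, and each gave an exact permutation p of 0.1, two-sided, which 3 against 3 cannot go below. Shares of long intergenic RNA (6.58 ± 1.12% in EVs and 5.49 ± 1.03% in cells) and of snRNA (2.06 ± 0.08% in EVs and 2.22 ± 0.12% in cells) overlapped between the groups (exact p = 0.2 for each). Calls were counted within the classes as well. Higher in EVs were 3.17% of 13998 protein-coding genes, 1.34% of 3514 antisense genes, 0.85% of 2236 long intergenic genes, 0.764% of 1833 processed pseudogenes, 2.09% of 335 processed transcripts, 1.15% of 610 miscellaneous RNAs, 1.25% of 80 miRNA loci and 0% of 69 snoRNAs, 21 mitochondrial tRNAs and 135 snRNAs. Lower in EVs were 5.65% of the protein-coding genes, 12.9% of the antisense genes, 12.1% of the long intergenic genes, 14.4% of the processed pseudogenes, 12.2% of the processed transcripts, 14.6% of the miscellaneous RNAs, 20% of the miRNA loci, 11.6% of the snoRNAs, 61.9% of the mitochondrial tRNAs and 8.89% of the snRNAs. Protein-coding genes were thus the class with the largest share higher and the smallest share lower. Transcripts under 200 nt took 15.1 to 17.0% of the EV libraries and 38.4 to 40.5% of the cell libraries.

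**Figure D4:**
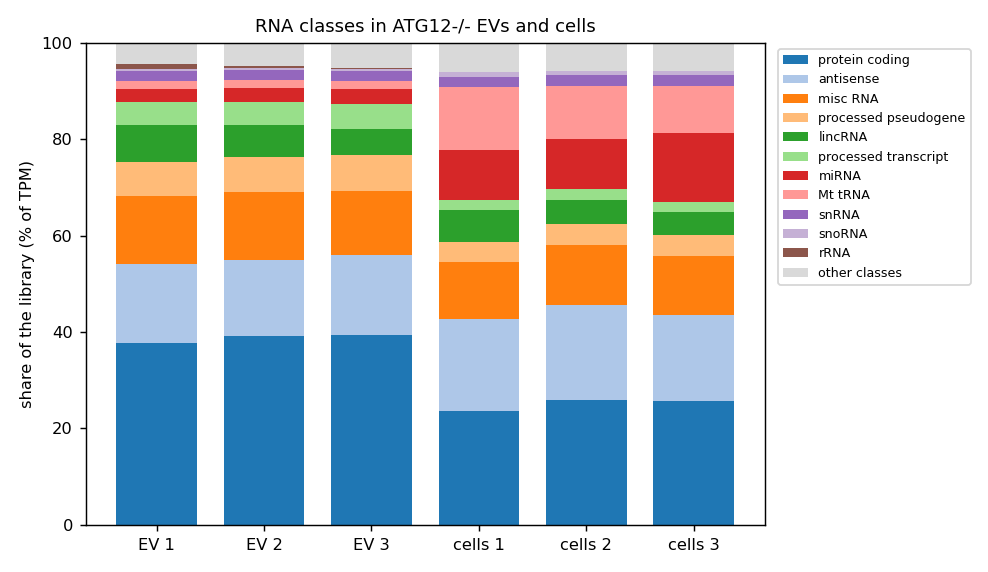
Share of each library (percent of TPM) by annotated RNA class, as stacked bars for the 3 EV libraries (left) and the 3 cell libraries (right) of ATG12-/-. Protein-coding genes take 37.7 to 39.3% of the EV libraries and 23.7 to 25.8% of the cell libraries, and the miRNA and mitochondrial tRNA blocks are wide in the cells and narrow in the EVs.

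The EV-to-cell difference was then set against that of ATG7-/- and of wild type, in the same fit. Of the genes called in ATG12-/-, 334 higher and 984 lower ones were called in the same direction in ATG7-/-, and 323 higher and 1452 lower ones in wild type. The direction was opposite for 4 genes called in ATG12-/- and ATG7-/- and for 7 called in ATG12-/- and wild type. In all, 2809 genes passed in ATG7-/- and 6086 in wild type. A gene called in one genotype and not in another is not shown to differ between them, so the difference of differences was tested. It passed for 29 genes against ATG7-/- (0.118% of those tested) and for 66 genes against wild type (0.268%), with 13 genes in both. At an unadjusted p under 0.05 there were 1467 genes against ATG7-/- and 2501 against wild type. The count against ATG7-/- was 46 without EV replicate 3 and 16 without cell replicate 3 of ATG12-/-, and that against wild type was 43 without cell replicate 3. Many of the calls were genes at 0 in all 6 libraries of one genotype: 9 with ATG12-/- at 0 and 6 with ATG7-/- at 0 in the comparison with ATG7-/-, and 21 with ATG12-/- at 0 and 5 with wild type at 0 in the comparison with wild type. The median EV-to-cell difference of the mitochondrial mRNAs was -3.28 in ATG12-/-, -3.21 in ATG7-/- and -3.38 in wild type. That of the large-subunit ribosomal protein mRNAs was 1.82 in ATG12-/-, 1.96 in ATG7-/- and 1.70 in wild type, and that of the protrusion mRNAs 1.23, 1.79 and 1.02 in the same order.

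RAB13 was a gene of the lists at which the genotypes differed. The EV libraries had 621 to 681 TPM in ATG12-/-, against 487, 449 and 457 TPM in ATG7-/- and 306, 309 and 295 TPM in wild type. The cell libraries had 3.59 to 6.63 TPM in ATG12-/-, against 7.91, 8.16 and 14.5 TPM in ATG7-/- and 6.43, 7.70 and 9.19 TPM in wild type. The EV values of the genotypes did not overlap, and those of ATG12-/- were the highest. The log2 difference of ATG12-/- minus wild type was 2.03 ± 0.39 (adjusted p = 0.038), a call kept in 7 of 16 alternatives and lost without EV replicate 1, 2 or 3 or cell replicate 1 or 2 of ATG12-/- (adjusted p up to 0.348). Against ATG7-/- it was 1.48 ± 0.39 and did not pass (adjusted p = 0.32).

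RPPH1 differed from wild type in the other direction. The ATG12-/- means were 4559.7 TPM in EVs and 2247 TPM in cells, whereas wild type had 10328, 13561 and 11619 TPM in EVs and 1017, 919.7 and 598 TPM in cells, a wider gap. The difference of differences was -2.39 ± 0.40 (adjusted p = 0.0155), a call kept in 13 of 15 alternatives and lost with sample weights and with the replicate block (adjusted p up to 0.264). AD000091.1, a processed pseudogene on chromosome 19, was higher in EVs of ATG12-/- (22509.8, 24103 and 27791 TPM in EVs and 7900.3, 8254 and 6884 TPM in cells) and of ATG7-/- (log2 difference 1.29 ± 0.16), whereas the wild-type difference was -0.33 ± 0.16. The difference of ATG12-/- minus wild type was 1.88 ± 0.22 and kept its call in 15 of 16 alternatives. ATP5PO had 50.7, 54.5 and 467 TPM in ATG12-/- EVs, against 60.8, 28.1 and 227 TPM in ATG7-/- EVs and 0, 1.203 and 0 TPM in wild-type EVs, so the wild-type EV values lay below those of both knockouts. Its call against wild type was kept in 14 of 16 alternatives. It was lost with a pseudocount of 5 TPM and with the replicate block (adjusted p up to 0.254).

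MT-TA, the alanine tRNA of mitochondria, was listed at 0 in the EVs of ATG12-/- alone. It had 2428, 1447 and 638 TPM in ATG7-/- EVs and 791, 3304 and 3639 TPM in wild-type EVs, with 5203, 3636 and 4053 TPM in ATG7-/- cells and 4616, 3991 and 4132 TPM in wild-type cells. The test of the difference passed against both genotypes under every alternative that kept the transcript. FLJ46906, an antisense RNA, showed the reverse pattern, with 14.5, 13.6 and 51.3 TPM in ATG12-/- EVs and 0 TPM in every EV library of ATG7-/- and wild type. Its ATG12-/- cells had 2.50, 0.800 and 0.806 TPM. The FLJ46906 call was kept in 15 of 16 alternatives against each genotype and lost with the replicate block (adjusted p up to 0.197). SSB had 0, 1.25 and 0 TPM in ATG12-/- EVs, against 24.2, 33.4 and 24.1 TPM in ATG7-/- EVs, but the difference of differences kept its call in 5 of 16 alternatives, and it was lost without EV replicate 1 or 3 and without cell replicate 1, 2 or 3 of ATG12-/- (adjusted p up to 0.384).

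**Figure D5:**
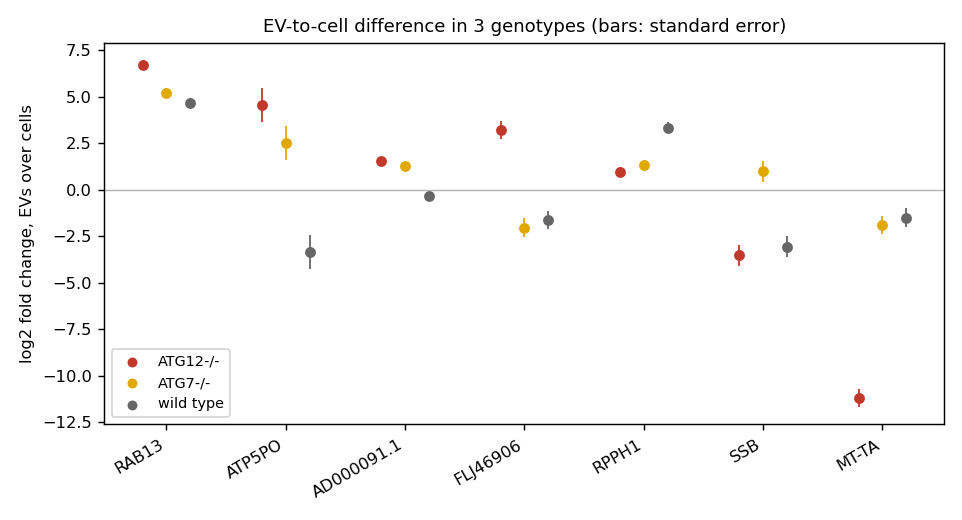
Log2 difference of EVs over cells with its standard error in ATG12-/- (red), ATG7-/- (yellow) and wild type (grey) for genes whose difference depended on genotype. RAB13 is positive in all of them and largest in ATG12-/- at 6.69, FLJ46906 is positive in ATG12-/- alone, and MT-TA is lowest in ATG12-/-, where its EV libraries were all at 0.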

How the data were processed

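RNA was measured in 3 EV and 3 cell libraries of ATG12-/-, ATG7-/- and wild-type HEK293T, amplified for 22 cycles. The deposited table gives TPM for 203027 transcripts; per the submitters' processing notes, Salmon 0.14 and DESeq2 were among the tools, with no role stated. The sources used here do not give the strand setting or the annotation. Transcript IDs without version matched GENCODE 29 for 202941 transcripts, which were summed into 57865 genes; the 86 others were left out. Read depth cannot be had from TPM, so no counting intervals are given.

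Scale factors per library were medians of ratios over genes at 1 TPM or more in all libraries, genes at 1 TPM or more in at least 3 of 18 libraries were kept, and log2(TPM + 1) was fitted in 6 groups with limma 3.58.1 (R 4.3.3), trend, moderated, two-sided, Benjamini-Hochberg over all 24647 genes. On this scale the changes of low genes come out too small. The fit has 12 residual degrees of freedom; no batch is labelled. Genotype dependence was tested as a difference of differences in the same fit. Class shares were compared by exact permutation, 3 against 3. The code was checked on simulated data.

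Named genes are ATG12, ATG7 and, per direction, the 12 with the largest change that passed the test without overlap and reached 20 TPM, the 10 most abundant, up to 3 of each gene list with the smallest p, up to 5 of each genotype contrast, and coding partners of named antisense features. The members and the gene lists were chosen with earlier results of these data known, so their counts are descriptions. Other list members with values and the VASH1 locus were picked after their values were seen. Alternatives were other scaling, pseudocounts of 0.1 and 5 TPM, other filters, a fit of 6 libraries, no trend with sample weights, a replicate block, each ATG12-/- library left out in turn, and short or small noncoding RNA left out. A few genes and sequences are not reported here.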

Additional observations from a re-analysis of the deposited data

Results flagged for a closer look

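Genes are listed here because the test of the difference itself found that the EV-to-cell log2 difference in ATG12-/- differed from that in another genotype. Values are ATG12-/- minus the other genotype, up to 5 genes per direction and contrast.

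Against both other genotypes, MT-TA stood at -9.28 (ATG7-/-) and -9.70 (wild type), the antisense RNA FLJ46906 at 5.23 and 4.82, and AC012309.2 at -4.75 and -5.85. AC012309.2, an antisense feature, was listed at 0 in all ATG12-/- EV libraries and reached 40.04, 19.02 and 23.0 TPM in ATG12-/- cells, against 46.0, 62.0 and 35.1 TPM in ATG7-/- EVs and 24.2, 122 and 78.9 TPM in wild-type EVs; its call against ATG7-/- was lost without cell replicate 1 or 3. RF00017, a copy of 7SL at chr13:40730981-40731253, gave 7.17 and 6.46; it had 100.9, 92.0 and 78.6 TPM in ATG12-/- EVs and was listed at 0 in all EV libraries of ATG7-/- and wild type, although the 7SL family as a whole was present there. RF00019, a Y RNA copy at chrX:107202577-107202683, and the processed pseudogene AL035090.1 gave the same value against both, -6.24 and -2.39, because both were listed at 0 in all libraries of ATG7-/- and wild type and were above 0 in ATG12-/- cells. RF00019 and AL035090.1 could pass the level filter only through ATG12-/- libraries. Their calls show no more than that they were read in ATG12-/-.

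Several differences came from genes listed at 0 in all 6 ATG12-/- libraries, so they rest on values of the other genotype. The snoRNA copy RF00096 (6.63 against ATG7-/- and 6.57 against wild type) and the 7SK copy RN7SKP158 (3.27 and 3.88) were above 0 in the cells of both. MIR215 (7.41), RNU6-1154P (6.80), RNU6-445P (6.78) and SNORA49 (6.52) were above 0 in wild-type cells alone, and AC025423.2 (-3.05) in ATG7-/- EVs alone. Genes above 0 in a single group could pass the level filter only through that group. Their calls show presence in that group and no more.

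Against wild type, ATP5PO gave 7.92, RAB13 2.03, AD000091.1 1.88, RPPH1 -2.39 and AC015688.4 -5.57; the last had 2.04, 1.63 and 3.41 TPM in ATG12-/- cells and 16.8, 16.1 and 16.6 TPM in wild-type EVs, and was at 0 in ATG12-/- EVs and wild-type cells. Against ATG7-/-, AC017002.3 gave 4.77, SSB -4.50, RNU7-18P -7.55 and RF02120 -8.74. RF02120 (chrX:74280402-74280495) was listed at 0 in ATG12-/- EVs with 1434, 613 and 618 TPM in ATG12-/- cells, against 471, 928 and 339.7 TPM in ATG7-/- EVs; it was also at 0 in wild-type EVs. RNU7-18P was above 0 in ATG12-/- cells (167, 71.2 and 575 TPM) and listed at 0 in all ATG7-/- libraries.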

How the results depend on the processing

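The number of genes that differed between ATG12-/- EVs and cells (2752) stayed within 1.5 times under 2 pseudocounts, 2 filters, no scaling, the fit of 6 libraries, sample weights and both removals of short RNA. The genes were not all the same. From 2033 (pseudocount 5) to 2607 (transcripts under 200 nt left out) of the 2752 were called again in these settings, and 2075 in the fit of 6 libraries. Quantile normalization gave 1414 higher and 900 lower genes, and 1455 of the 2752 were called again. Single libraries left out gave 1292 to 2316 calls, 298 to 549 higher and 994 to 1767 lower. With the replicate block 1246 genes passed (288 higher and 958 lower). Same-numbered EV and cell libraries correlated at 0.0054, 0.0053 and -0.0038 in their deviations. The labels do not say whether the numbers pair the libraries, and correlations of such variable deviations cannot decide it. Under that block 17 genes differed from wild type and 10 from ATG7-/-.

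The difference from wild type (66 genes) gave 29 with sample weights and 43 to 89 with single libraries left out. The difference from ATG7-/- (29 genes) gave 18 with a filter of 5 TPM, 19 without mitochondrial and small noncoding RNA, and 16 to 46 with single libraries left out. The cause was not tested.

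Without transcripts under 200 nt, the share of long intergenic RNA turned from 1.09 to -0.98 percentage points (EVs minus cells) and that of snRNA from -0.16 to 0.11; the exact p was 0.6 without the short transcripts, and 3 against 3 cannot go below 0.1. KCNQ1OT1 turned to 0.47 with quantile normalization (adjusted p = 0.334). Of 133 named genes that passed, 85 kept direction and call in all 17 alternatives, and the block cost 32 and the loss of cell replicate 1 cost 37 of the 133. Read depth is unknown, so its part in the low EV values was not tested.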
